A study of Mus musculus with 24 samples.

Results

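The hypoxia response and glycolysis genes were a list of 36 gene symbols, taken as the rows of the deposited table whose gene name equals a listed symbol. These comprised 37 of the 17270 rows, since Aldoa had 2 rows. The second Aldoa row averaged 4.04 normalized counts over the 24 libraries and fell under the minimum mean of 5, so 36 rows were tested among 15982. By role the list held 4 subunits of the hypoxia-inducible factors (HIF), 5 genes of the oxygen-sensing hydroxylases and the VHL ligase, 11 hypoxia-induced genes outside glycolysis, 9 genes of upper glycolysis and 7 of lower glycolysis and lactate dehydrogenase.

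The libraries were made from brain microvessels of male C57BL/6J mice aged 10 to 12 weeks. Transient middle cerebral artery occlusion (tMCAO, named stroke in the plots) blocks the artery with a filament for 60 min before blood returns; in sham surgery the filament was withdrawn at once. Microvessels of the ipsilateral (operated) and contralateral hemisphere were isolated 24 h or 7 days after surgery, which gave 8 groups of 3 libraries: sham and tMCAO, each hemisphere, at both times. Each library pooled hemispheres of several animals. A value is a normalized count, the reads of a gene divided by a depth factor of its library.

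Cells sense oxygen through HIF, a pair of proteins made of an alpha subunit (HIF-1alpha, HIF-2alpha or HIF-3alpha) and ARNT. With oxygen present, the prolyl hydroxylases of the Egln genes mark the alpha subunit, VHL binds it and it is degraded, so most of the control acts on protein and not on RNA. In low oxygen HIF binds short DNA sites with the core ACGTG or GCGTG and raises transcription of glycolytic enzymes, of lactate dehydrogenase A, of pyruvate dehydrogenase kinase and of the hydroxylases Egln1 and Egln3 themselves. Brain endothelial cells are known for abundant HIF-2alpha, which the gene Epas1 encodes.

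The tissue label was checked with marker genes. All 10 endothelial markers were detected in every group, and their summed level was between 212088 and 298772 normalized counts in the 24 libraries. The libraries held 15924780 to 18787932 normalized counts in all, and none of them was a copy of another. Levels set against each other between genes are given per kilobase (kb) of exon. Epas1 was the most abundant member in each of the 8 groups, at a mean of 12197 normalized counts per kb over the 24 libraries. The next were Aldoa, with group means of 3466 to 5000 per kb, Ddit4, with 2303 to 6210, and Ndrg1, with 1833 to 3980, whose order changed between groups. Ldha averaged 2500 per kb and Pkm 1959. Hif1a stood at 504 per kb. The least abundant members were Hif3a at 68.8 per kb, Egln3 at 10.5 and Hk2 at 8.77.

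At 24 h, tMCAO ipsilateral microvessels were compared with sham ipsilateral microvessels. This asks what microvessels of the occluded hemisphere express beyond the effect of surgery. Per the paper whole hemispheres were used, so vessels of infarcted, peri-infarct and partly of intact regions were mixed. The genes of 4 enzymes of lower glycolysis rose, namely Gapdh, Pgk1, Eno1 and Pkm, by 1.61- to 2.31-fold. Mxi1, Pdk1 and Ldhb fell by 1.58- to 1.67-fold. The other 29 members were not called, among them all 4 HIF subunits, all 5 hydroxylase and VHL genes and all 9 genes of upper glycolysis. A gene was called when its limma p-value, adjusted over all 15982 genes, was below 0.05 and its change exceeded 1.5-fold in either direction. With these limits 4 members were called higher, against 10.0% of all genes tested, and 3 lower, against 8.23%. The list as a whole was thus called about as often as all genes, at 7 of 36 against 18.3%, and its median log2 fold change was 0.00 beside -0.02 for all genes.

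**Figure D1:**
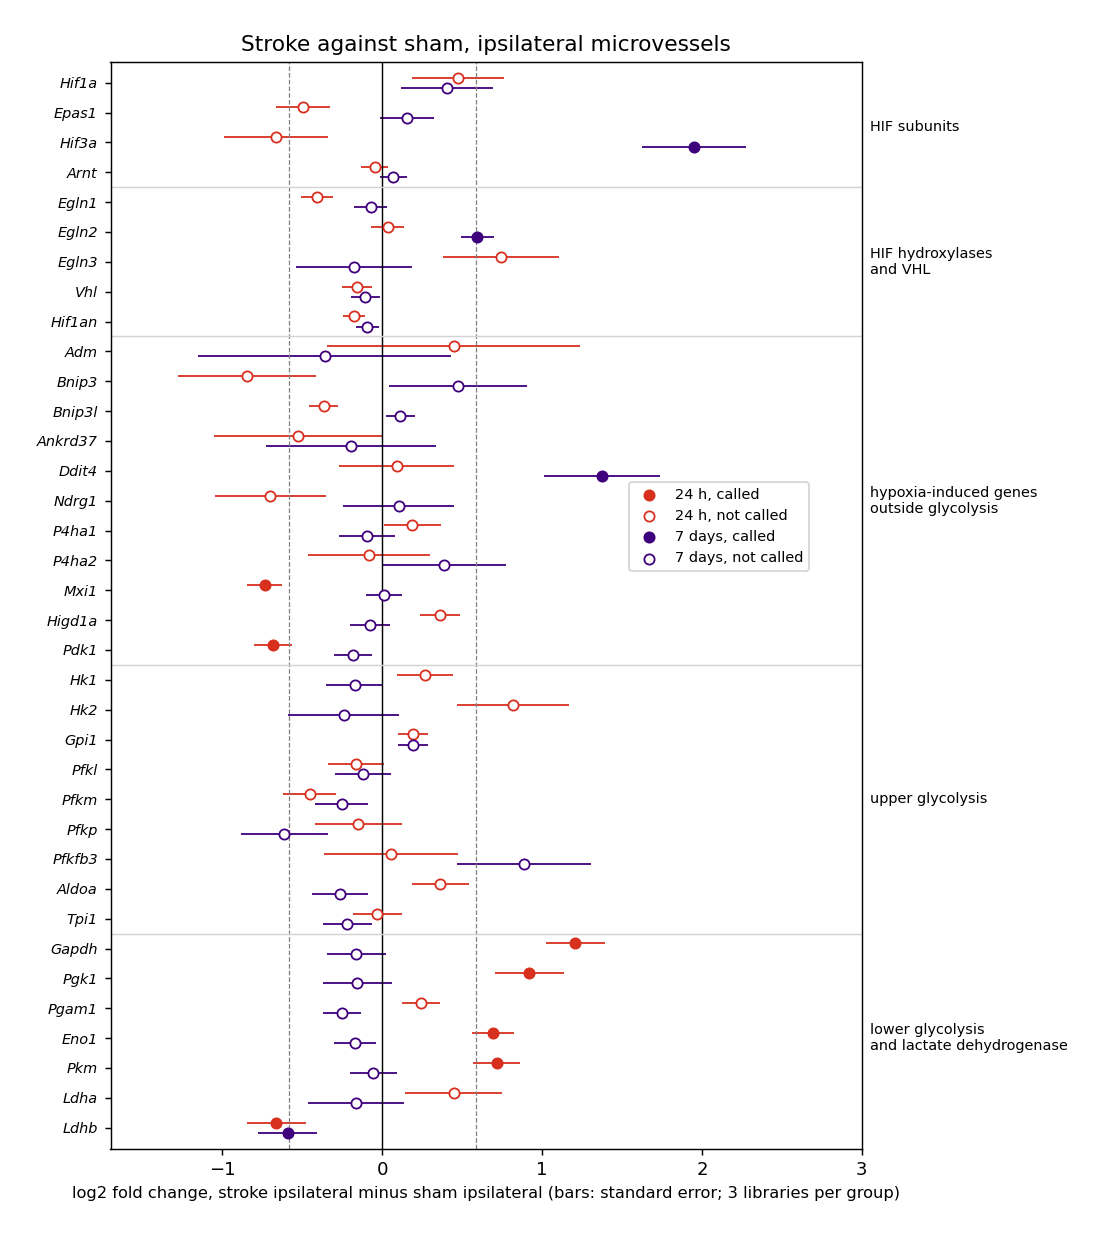
Log2 fold change of each member in tMCAO against sham ipsilateral microvessels at 24 h (red) and 7 days (purple), grouped by role, with bars of 1 standard error from limma and 3 libraries per group. Filled points were called and dashed lines mark the limit of 1.5-fold; the 24 h points of Gapdh, Pgk1, Eno1 and Pkm lie to the right of the limit and their 7 day points lie near 0.

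Lower glycolysis carries the steps from glyceraldehyde phosphate to pyruvate, and lactate dehydrogenase follows it. These 7 genes held the 4 members called higher at 24 h (10.0% of all genes) and 1 of the 3 called lower, Ldhb (8.23%). Gapdh (chr6:125161853-125166467 in mm10, minus strand), the dehydrogenase that begins these steps, measured 7797, 8479 and 6133 normalized counts after tMCAO and 2762, 3219 and 3696 after sham. Every tMCAO library was above every sham library, with a log2 fold change of 1.21 (SE 0.18, limma adjusted p = 8.91e-05). Pgk1 (chrX:106187100-106203699, plus strand), the phosphoglycerate kinase that yields ATP, measured 1337, 1315 and 1008 against 526, 610 and 816. These groups did not overlap either, and the log2 fold change was 0.92 (SE 0.22, limma adjusted p = 0.0036).

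Eno1 (chr4:150236952-150248879, plus strand), the widely expressed enolase, measured 3011, 2679 and 2697 normalized counts after tMCAO and 1537, 1909 and 1764 after sham. Its log2 fold change was 0.69 (SE 0.13, limma adjusted p = 0.00067), without overlap between the groups. Pkm (chr9:59656368-59679375, plus strand), the muscle-type pyruvate kinase, measured 16045, 15579 and 12072 against 7933, 8843 and 9719, again without overlap. Its log2 fold change was 0.72 (SE 0.15, limma adjusted p = 0.0013). Pgam1, the phosphoglycerate mutase between Pgk1 and Eno1, had a log2 fold change of 0.24 and an adjusted p of 0.129 by limma and was not called. Mouse genomes hold many processed copies of several glycolytic genes, and reads that matched several genes were left out by the authors, so the levels of Gapdh, Pgk1, Eno1, Pgam1, Aldoa, Tpi1 and Ldha are uncertain to that extent.

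Of the lactate dehydrogenase subunits, Ldhb fell at 24 h and Ldha was not called. Ldhb (chr6:142490249-142507957, minus strand), the subunit typical of oxidative tissue, measured 832, 749 and 895 normalized counts after tMCAO and 1126, 1515 and 1297 after sham at 24 h. All tMCAO values lay below all sham values, and the log2 fold change was -0.66 (SE 0.18, limma adjusted p = 0.011); without replicate 2 of the sham group it was no longer called (adjusted p = 0.055). Ldha (chr7:46845839-46855627, plus strand), the subunit known as a HIF target, measured 9905, 11924 and 9213 against 6103, 7096 and 9948. These groups overlapped, and its log2 fold change of 0.45 (95% interval -0.18 to 1.08) had an adjusted p of 0.271 by limma. The ratio of Ldha to Ldhb within each library, which does not depend on library scaling, was higher after tMCAO by 1.11 on the log2 scale, or 2.15-fold, and the groups did not overlap. The 2-sided exact permutation p was 0.1, the smallest that 3 against 3 libraries allow (0.3 adjusted over the 6 ratio tests), so the difference in the ratio could not pass a threshold of 0.05 in this design.

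**Figure D2:**
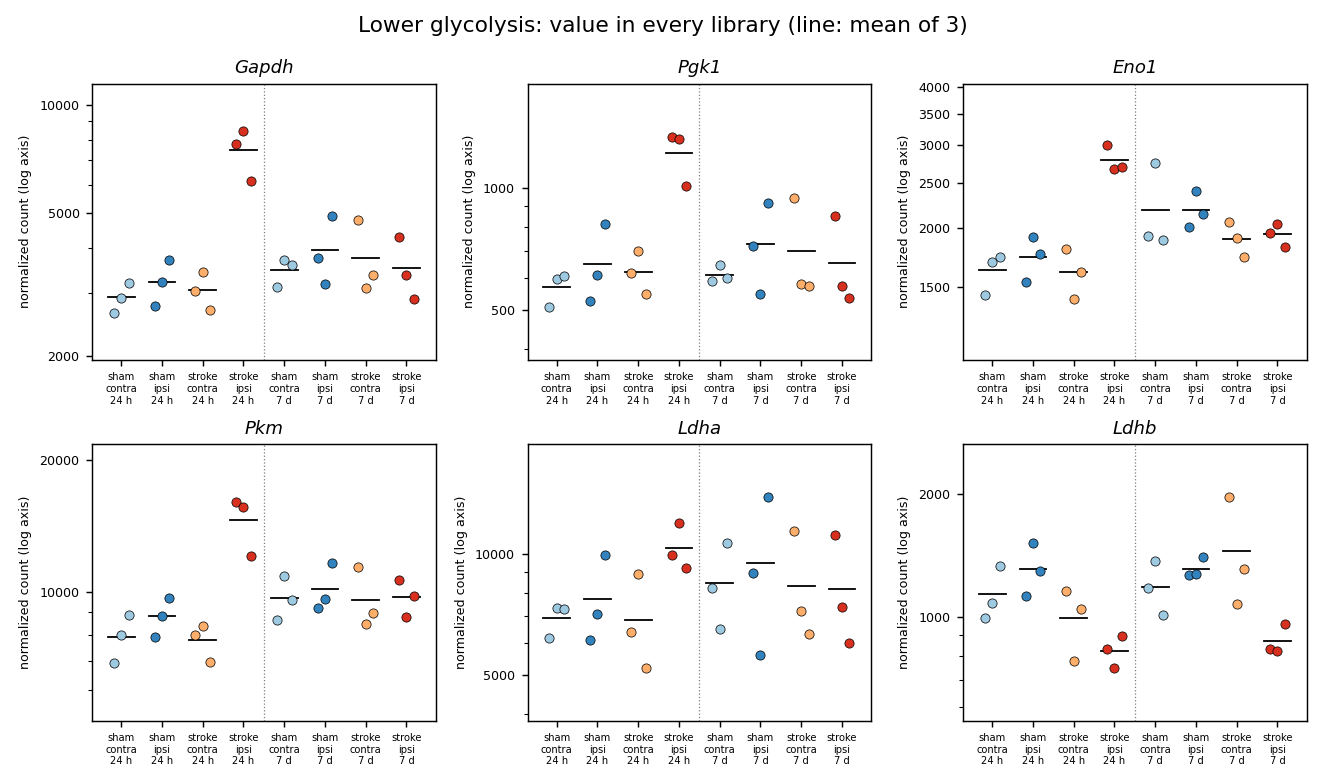
Normalized counts on a log axis of 6 genes of lower glycolysis and lactate dehydrogenase in every library, by surgery, hemisphere and time; points are libraries and lines the mean of 3. At 24 h the ipsilateral tMCAO libraries of Gapdh sit between 6133 and 8479, above the 9 other libraries of that time, and at 7 days the 4 groups of Gapdh overlap.

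Upper glycolysis, from glucose phosphorylation to the triose phosphates, had no called member at 24 h, beside 18.3% of all genes (median log2 fold change 0.06). Hk2, the inducible hexokinase, measured 127, 77 and 97 normalized counts after tMCAO and 49, 43 and 80 after sham; the groups overlapped by 1 library, the log2 fold change was 0.82 (95% interval 0.09 to 1.55) and the adjusted p was 0.081 by limma. Without replicate 3 of the sham group it was called (1.08, limma adjusted p = 0.044). Pfkm, the muscle-type phosphofructokinase, had a log2 fold change of -0.45 with an adjusted p of 0.045 by limma, under the fold limit. The log2 fold changes of the others, Hk1, Gpi1, Pfkl, Pfkp, Pfkfb3, Aldoa and Tpi1, ran from -0.16 to 0.36. The ratio of Hk2 to the constitutive Hk1 differed by 0.55 on the log2 scale at 24 h, with overlap between the groups (2-sided exact permutation p = 0.2, adjusted 0.4).

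None of the HIF subunits was called at 24 h, beside 18.3% of all genes. Hif1a (chr12:73901375-73947530, plus strand), which encodes HIF-1alpha, measured 4001, 4076 and 3632 normalized counts after tMCAO and 2501, 2887 and 3057 after sham. The groups did not overlap, as for 49.0% of all genes in either direction, and the log2 fold change of 0.47 (95% interval -0.13 to 1.08) had an adjusted p of 0.217 by limma. Epas1 (chr17:86753907-86833410, plus strand) measured 50225, 52251 and 58130 against 81577, 68382 and 76481. Its tMCAO libraries were all lower, with a log2 fold change of -0.49 (SE 0.17) and an adjusted p of 0.032 by limma, under the fold limit. The ratio of Hif1a to Epas1 was 0.97 higher on the log2 scale, or 1.96-fold, without overlap (2-sided exact permutation p = 0.1, the smallest possible; 0.3 adjusted). Hif3a, whose product can restrain the other alpha subunits, had a log2 fold change of -0.66 with an adjusted p of 0.129 by limma, and Arnt, the shared partner, one of -0.05. Hif3a was called without replicate 2 of the sham group (-0.96, limma adjusted p = 0.047) and in a fit blocked by replicate number (limma adjusted p = 0.026).

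**Figure D3:**
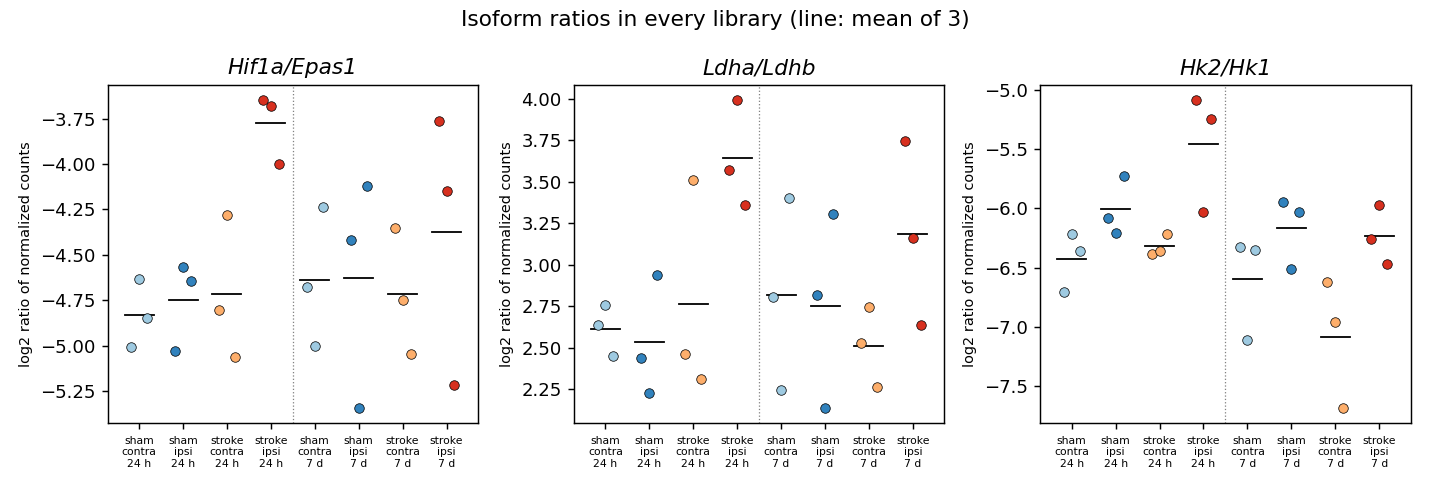
Log2 ratio of normalized counts of Hif1a to Epas1, Ldha to Ldhb and Hk2 to Hk1 in every library of the 8 groups; lines are means of 3. At 24 h the tMCAO ipsilateral libraries lie above all sham ipsilateral libraries for Hif1a to Epas1 and for Ldha to Ldhb, by 0.97 and 1.11 on average, while Hk2 to Hk1 overlaps.

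Among the oxygen sensors, Egln3 (chr12:54178981-54203860, minus strand), a hydroxylase gene that HIF induces, was read at few counts, with 67, 43 and 41 normalized counts after tMCAO and 29, 27 and 31 after sham. The groups did not overlap, yet the log2 fold change of 0.74 (95% interval -0.02 to 1.5) had an adjusted p of 0.126 by limma. Egln1, which encodes the main prolyl hydroxylase PHD2, was lower by 0.41 on the log2 scale with an adjusted p of 0.0054 by limma, under the fold limit. Vhl and Hif1an, the asparaginyl hydroxylase that limits HIF activity, had log2 fold changes of -0.16 and -0.18, and Egln2 one of 0.03.

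Of the 11 hypoxia-induced genes outside glycolysis, 2 fell and none rose at 24 h, beside 8.23% and 10.0% of all genes. Their median log2 fold change was -0.37, beside -0.02 for all genes. Mxi1 (chr19:53310506-53375810, plus strand), an antagonist of MYC, measured 1057, 1083 and 1296 normalized counts after tMCAO and 1858, 1799 and 2051 after sham. Its log2 fold change was -0.74 (SE 0.11, limma adjusted p = 8.07e-05), with no overlap. Pdk1 (chr2:71873224-71903858, plus strand), the kinase that closes the entry of pyruvate into mitochondria, measured 466, 438 and 598 against 727, 856 and 816. This difference was -0.68 on the log2 scale (SE 0.12, limma adjusted p = 0.00036) without overlap, and it came to -0.51, under the fold limit, after a correction for gene length and GC content.

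Bnip3 and Bnip3l, which mark mitochondria for removal, were lower in every tMCAO library than in any sham library. Bnip3 had a log2 fold change of -0.85 with an adjusted p of 0.142 by limma (0.030 when only the compared groups were fitted), and Bnip3l one of -0.37 with an adjusted p of 0.0057, under the fold limit. Higd1a, a mitochondrial protein of hypoxia, was 0.36 higher with an adjusted p of 0.034 by limma, also under the limit. Ndrg1 stood at -0.70 and Ankrd37 at -0.52, both uncalled. The remaining genes Adm, Ddit4, P4ha1 and P4ha2, which encode adrenomedullin, an mTOR inhibitor and 2 collagen hydroxylase subunits, ran from -0.08 to 0.45 in log2 fold change.

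**Figure D4:**
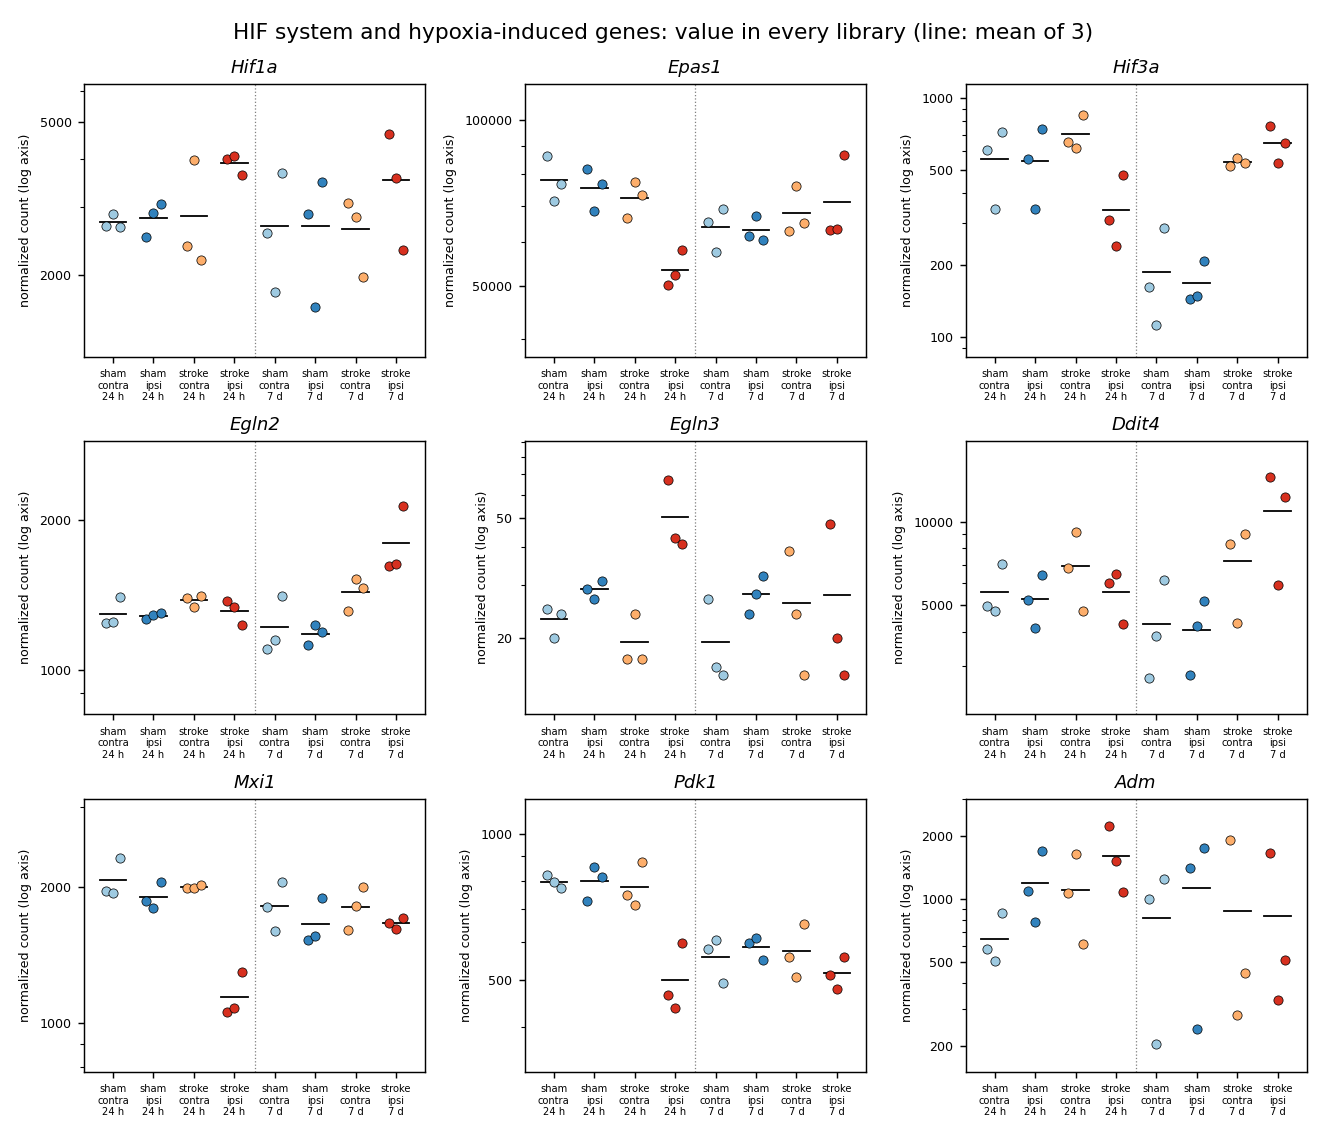
Normalized counts on a log axis of 9 genes of the HIF system and of hypoxia-induced genes in every library of the 8 groups; lines are means of 3. At 24 h Mxi1 and Pdk1 are lowest in the tMCAO ipsilateral libraries, Hif3a is high in both hemispheres 7 days after tMCAO, at 520 to 761, and Adm spreads from 203 to 2243 within and across groups.

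Promoter sequence was set beside these changes, since HIF acts through a known core. RefSeq windows of the 250 bases before a RefSeq gene start (GRCm38.p6) were found for 33 of the 36 members. Several genes had more than 1 window, and the one nearest the deposited gene start was taken. The RefSeq start lay more than 200 bases from the deposited start, mostly inside the gene, for 5 members, by 6492 bases for Hif1a, 694 for Gapdh, 566 for Higd1a, 244 (upstream) for Eno1 and 208 for Pkm. The windows were searched for ACGTG and GCGTG on both strands, with overlapping matches counted as 1. Either core was present in 25 of the 33, or 75.8%, against 38.6% of all 32851 windows, and the median GC content of the members' windows was 62% against 52.4%. Of the 4 members called higher at 24 h, 3 held a core in the window taken, and so did 2 of the 3 called lower. The windows of 4 members are shown, 5′ to 3′ on the gene's strand with the cores in capitals: Pgk1 (chrX:106186850-106187099, plus strand), which rose and held 2 matches; Pdk1 (chr2:71872974-71873223, plus strand), which fell and held 1 (1 of its 2 windows held a core); Mxi1 (chr19:53310256-53310505, plus strand), which fell and held 0 (2 of its 3 windows held a core); and Hif3a (chr7:17062428-17062677, minus strand), which rose at 7 days and held 2.
Pgk1: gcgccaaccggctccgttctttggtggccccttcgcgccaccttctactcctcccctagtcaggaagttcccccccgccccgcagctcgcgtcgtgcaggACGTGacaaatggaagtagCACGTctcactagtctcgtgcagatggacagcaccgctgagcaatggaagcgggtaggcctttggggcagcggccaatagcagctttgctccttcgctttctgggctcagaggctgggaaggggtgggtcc
Pdk1: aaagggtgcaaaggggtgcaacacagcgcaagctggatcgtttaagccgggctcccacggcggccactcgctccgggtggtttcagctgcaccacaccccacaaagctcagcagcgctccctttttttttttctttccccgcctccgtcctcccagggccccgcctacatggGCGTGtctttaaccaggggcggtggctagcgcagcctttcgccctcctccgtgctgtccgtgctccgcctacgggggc
Mxi1: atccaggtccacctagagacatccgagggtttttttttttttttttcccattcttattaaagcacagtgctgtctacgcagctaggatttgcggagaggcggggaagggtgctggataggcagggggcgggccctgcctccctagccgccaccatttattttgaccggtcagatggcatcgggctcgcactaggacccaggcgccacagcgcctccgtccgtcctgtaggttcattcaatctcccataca
Hif3a: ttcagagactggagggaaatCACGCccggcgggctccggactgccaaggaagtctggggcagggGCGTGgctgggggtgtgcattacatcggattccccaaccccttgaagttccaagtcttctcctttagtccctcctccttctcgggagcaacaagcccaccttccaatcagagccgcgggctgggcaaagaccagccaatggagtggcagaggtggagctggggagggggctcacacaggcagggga
A match is a description of these letters and not a bound site.

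Markers of other cells moved with the 24 h comparison. Of 10 neutrophil and monocyte markers 9 were called higher, and their summed level was 28546 to 39445 normalized counts after tMCAO against 4893 to 9506 after sham. The summed level of 10 neuronal markers was 2917 to 3822 against 6944 to 7118, with 6 called lower, and 6 of 10 astrocyte markers were called lower. That of 10 pericyte and mural markers was 65360 to 119710 against 121009 to 132118, with 1 called lower. Of 10 macrophage markers 5 were called higher. None of these markers was at 0 in either group. The part of these cells in the levels of Gapdh, Pgk1, Eno1, Pkm, Ldhb, Mxi1 and Pdk1 was not tested, and in pooled tissue fewer cells of a type and less RNA per cell cannot be told apart.

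Against the contralateral hemisphere of tMCAO mice at 24 h, a comparison that shares its ipsilateral libraries with the comparison to sham, Gapdh, Pgk1, Eno1 and Pkm were 0.80 to 1.29 higher on the log2 scale, beside 0.69 to 1.21 against sham. Egln3 and Hk2 were also called higher here, at 1.32 (limma adjusted p = 0.012) and 1.13 (limma adjusted p = 0.022), since the contralateral libraries held 17 to 24 normalized counts of Egln3 and 40 to 54 of Hk2. Called lower were Hif3a at -1.10, Mxi1 at -0.81 and Pdk1 at -0.65. Ldhb, called lower against sham, was not called here, at -0.25. Its ipsilateral libraries (832, 749 and 895) overlapped the contralateral ones (1156, 778 and 1043). Without single libraries the calls of Egln3 (ipsilateral replicate 1), Hk2 (contralateral 1 or 3, ipsilateral 1), Hif3a (contralateral 3, ipsilateral 1 or 2) and Pdk1 (contralateral 3, ipsilateral 2) were lost, with adjusted p-values by limma of up to 0.069, 0.106, 0.1 and 0.007. That made 6 members higher, against 8.51% of all genes, and 3 lower, against 5.14%. At 7 days no member was higher than in the contralateral hemisphere (3.03% of all genes). Ldhb was lower at -0.69 by limma (9.98% of all genes). At an unadjusted limma p below 0.05 were 4 members, beside 4305 of all 15982 genes. That call of Ldhb was lost without contralateral replicate 1 (-0.45, limma adjusted p = 0.106) and in a fit of the compared groups alone (limma adjusted p = 0.1). In the sham mice no member was called between hemispheres at either time by limma (0% of all genes). At an unadjusted limma p below 0.05 were 0 members at 24 h and 0 at 7 days, beside 367 and 359 of all genes. No member was called by limma between tMCAO and sham contralateral hemispheres, at 24 h (0% of all genes) or at 7 days (0.0313%). Here 0 and 4 members had an unadjusted limma p below 0.05, beside 405 and 1639 of all genes.

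At 7 days, tMCAO ipsilateral microvessels were again compared with sham. The members of lower glycolysis that rose at 24 h were not called, with log2 fold changes from -0.17 to -0.06. Hif3a, Ddit4 and Egln2 were called higher, against 3.27% of all genes, and Ldhb lower, against 9.95%. The share of 4 in 36 members is near the 13.2% called in either direction among all genes, and the median log2 fold change of the members was -0.10 beside 0.02 for all genes.

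Hif3a (chr7:17031507-17062427, minus strand) measured 761, 536 and 647 normalized counts after tMCAO at 7 days and 145, 149 and 209 after sham. The groups did not overlap, as for 30.0% of all genes in either direction at 7 days, and differed by 1.95 on the log2 scale (SE 0.33, limma adjusted p = 0.00029). The contralateral tMCAO libraries stood as high, at 520, 559 and 533, against 162, 112 and 287 in sham contralateral libraries, and the 2 tMCAO hemispheres did not differ beyond their spread (log2 fold change 0.27). Between the sham groups Hif3a alone was called (0.175% of all genes were lower) and fell by 1.65 on the log2 scale from 24 h to 7 days (SE 0.33, limma adjusted p = 0.021), from 555, 343 and 740 ipsilateral counts. That call was lost without any 1 of 4 of the 6 libraries (ipsilateral replicates 1 and 3 at 24 h, 1 and 2 at 7 days) and in a fit of these groups alone (adjusted p up to 0.109 by limma). Sham at 7 days was therefore the low group for this gene, and the tMCAO level at 7 days lay within the range of 342 to 740 of the sham libraries at 24 h except for 1 library.

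Ddit4 (chr10:59949669-59951834, minus strand), whose product REDD1 inhibits mTOR, measured 14500, 5887 and 12307 normalized counts after tMCAO at 7 days and 2778, 4192 and 5157 after sham. All tMCAO libraries were higher, by 1.38 on the log2 scale (SE 0.36, limma adjusted p = 0.012), but the call was lost without replicate 1 of either group (adjusted p up to 0.077). Its contralateral tMCAO libraries measured 8322, 4311 and 9026. Egln2 (chr7:27158658-27166802, minus strand), the hydroxylase PHD1, measured 1617, 1636 and 2137 against 1121, 1230 and 1191, a log2 fold change of 0.59 (SE 0.10, limma adjusted p = 0.00043) that lay at the fold limit and did not overlap. It was under that limit when libraries were scaled to equal totals, without replicate 1 of sham and without replicate 3 of tMCAO, where the log2 fold change came down to 0.46.

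Ldhb measured 831, 823 and 962 normalized counts after tMCAO at 7 days and 1266, 1271 and 1402 after sham. It was thus lower in all tMCAO libraries at both times; the log2 fold change of -0.59 (SE 0.18, limma adjusted p = 0.031) was at the fold limit, and the call was lost under median centring and without any 1 of 5 of the 6 libraries (adjusted p up to 0.0999). Ldha measured 11165, 7375 and 6002 against 8937, 5603 and 13868, with overlap and a log2 fold change of -0.16. Hif1a, at 4653, 3576 and 2321 against 2876, 1652 and 3483, and Epas1, at 63130, 63409 and 86403 against 61533, 67009 and 60740, overlapped between the groups. Egln3 did so too, at 48, 20 and 15 against 24, 28 and 32.

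The ratios of Hif1a to Epas1, Ldha to Ldhb and Hk2 to Hk1 at 7 days differed by 0.25, 0.43 and -0.07 on the log2 scale, with overlap in each and 2-sided exact permutation p-values of 0.6, 0.5 and 0.9. Pfkfb3, which makes the activator of phosphofructokinase, had a log2 fold change of 0.89 (95% interval 0.01 to 1.76) and an adjusted p of 0.165 by limma; it measured 2325, 1511 and 1227 against 500, 744 and 1828, and would have been called without the last sham library. Pfkp, the platelet-type phosphofructokinase, stood at -0.61 with an adjusted p of 0.14 by limma. Other cells moved with the 7 day comparison as well: the summed level of 10 neuronal markers was 2331 to 2947 normalized counts after tMCAO against 6103 to 9962 after sham, and that of 10 proliferation markers 517 to 571 against 138 to 155. Of 8 choroid plexus markers 6 were called lower, with sums of 677 to 3170 against 15999 to 29111, and 4 of 10 astrocyte markers were called lower, with sums of 27267 to 40432 against 28947 to 68484. Sums of 10 pericyte and mural markers were 82002 to 116609 against 133450 to 141792, with 0 called. None of these markers was at 0 in either group. Their part in the levels of Hif3a, Ddit4, Egln2 and Ldhb was not tested.

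**Figure D5:**
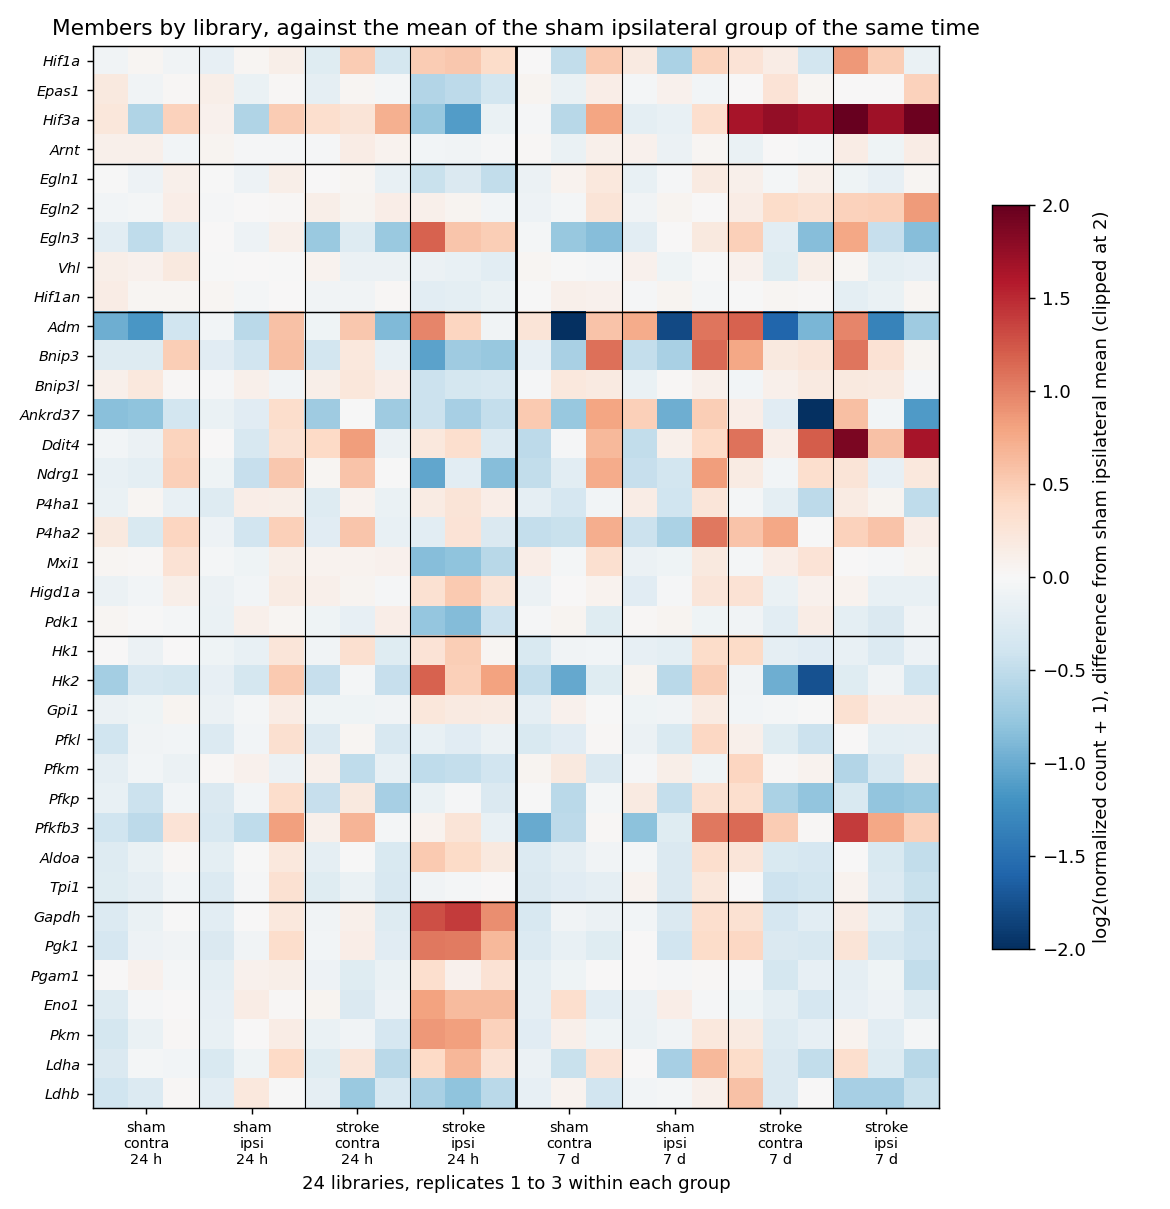
Each member (row) in each of the 24 libraries (column) as the difference in log2(normalized count + 1) from the mean of the sham ipsilateral group of the same time, red for higher and blue for lower, clipped at 2. The red block of Gapdh, Pgk1, Eno1 and Pkm is in the 3 tMCAO ipsilateral libraries at 24 h, and the red row of Hif3a at 7 days spans both tMCAO hemispheres.

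The effect of tMCAO was then compared between the times, as the difference of both log2 fold changes. The log2 fold change was lower at 7 days than at 24 h for Gapdh by -1.37 (SE 0.26, limma adjusted p = 0.0025), for Pgk1 by -1.07 (SE 0.30, limma adjusted p = 0.030), for Eno1 by -0.86 (SE 0.19, limma adjusted p = 0.0061) and for Pkm by -0.77 (SE 0.21, limma adjusted p = 0.023). For Hif3a the difference was 2.61 (SE 0.46, limma adjusted p = 0.0015), from -0.66 at 24 h to 1.95 at 7 days. For Mxi1 it was 0.75 (SE 0.16, limma adjusted p = 0.0051), since its log2 fold change of -0.74 at 24 h stood at 0.01 at 7 days. These 4 lower and 2 higher calls compare with 5.68% and 2.43% of all genes. The call of Pgk1 was lost in 10 of 21 alternatives and that of Pkm in 5, while those of Gapdh, Eno1, Hif3a and Mxi1 held in all 21. Ldhb did not differ in its effect between the times beyond its spread (0.07).

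Directly between tMCAO ipsilateral groups, Gapdh and Pgk1 were lower at 7 days than at 24 h, by -1.09 and -0.92 on the log2 scale, and so was Hk2 at -1.04, while Hif3a and Ndrg1 were higher by 0.97 and 1.11. These 3 lower and 2 higher members stand beside 8.44% and 3.72% of all genes. Those of Hk2 and Hif3a were lost without any 1 of 5 of the 6 libraries and that of Ndrg1 without any 1 of 4, with adjusted p-values by limma of up to 0.17, 0.176 and 0.133. Ndrg1, a stress-responsive gene of myelinating and other cells, measured 28272, 21042 and 27468 normalized counts at 7 days and 9283, 16463 and 10530 at 24 h. Eno1 and Pkm, whose effects differed between the times, were not called in this direct comparison. They were called in 2 and 4 of 15 alternatives.

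Some members varied widely between libraries of a group. Adm, which encodes the vessel-dilating peptide adrenomedullin, measured 1657, 332 and 511 normalized counts in the ipsilateral and 1916, 279 and 446 in the contralateral libraries of tMCAO mice at 7 days, listed by replicate number. In sham mice at 7 days it measured 1409, 239 and 1766 ipsilateral and 1001, 203 and 1248 contralateral. The highest and lowest libraries of these 7 day groups thus carried the same number in both hemispheres. So did those of sham mice at 24 h, with 1096, 781 and 1706 ipsilateral and 579, 505 and 860 contralateral. In tMCAO mice at 24 h only the lowest did, with 2243, 1527 and 1082 ipsilateral and 1073, 1644 and 613 contralateral. Ankrd37 and Hif1a were likewise lowest in the libraries numbered 2 of both sham hemispheres at 7 days, at 274 and 317 for Ankrd37 and 1652 and 1805 for Hif1a. Bnip3, Ndrg1 and P4ha2 were highest in the sham libraries numbered 3 at both times and in both hemispheres. For Bnip3 these held 2192 and 2141 at 7 days and 1852 and 1719 at 24 h.

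The wider pathway was read from lists of other genes. Of 10 further genes of the HIF machinery, 1 rose and 1 fell at 24 h, beside 10.0% and 8.23% of all genes: Tceb2, which encodes elongin B of the VHL complex, at 0.78, and Arnt2, the neuronal partner of HIF, at -0.73; Arnt2 was also lower at 7 days, at -1.25. Of 26 other HIF targets tested, 4 rose and 3 fell at 24 h, near the 10.0% and 8.23% of all genes, with a median log2 fold change of 0.06. Among the increases were those of Hmox1, the haem-degrading enzyme that oxidative stress also induces, at 3.73 (SE 0.35), and of Mif, a cytokine, at 0.85 (SE 0.23). The decreases were of Tfrc, the transferrin receptor, at -1.24, Ppp1r3c, a glycogen regulator, at -0.75, and Stc2 at -0.65. At 7 days 2 of the 26 rose, among them Pgf, the placental growth factor, at 1.01, and 5 fell, beside 3.27% and 9.95% of all genes, the most of them Car12 at -2.96, Vegfa, the vascular growth factor, at -1.47 and the glucose transporter Slc2a3 at -1.08. Of the markers, 9 of 10 neuronal and 6 of 8 choroid plexus genes were called lower at 7 days. Their part in these decreases, and that of other cells in the 24 h changes, was not tested.

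Of 11 other glycolysis isoforms and regulators tested, Hk3, a hexokinase of myeloid cells, rose by 1.61 on the log2 scale at 24 h and Pgm1 by 0.91, while the neuronal enolase Eno2 fell by 1.18 and the astrocytic aldolase Aldoc by 0.99. These 2 higher and 2 lower genes stand beside 10.0% and 8.23% of all genes. At 7 days Pfkfb1 was higher at 1.96, with a mean of 23 normalized counts against 6, and Eno2 lower at -2.40. This 1 higher and 1 lower gene stand beside 3.27% and 9.95% of all genes. The part of other cells in these changes was not tested. Eno2 and Eno1 therefore moved in opposite directions at 24 h. Of 14 genes for the transport of pyruvate and its entry into mitochondria only Slc16a1, the monocarboxylate transporter of brain endothelium, was called at 24 h. Its log2 fold change was -1.02 (6554 ± 1634 normalized counts after tMCAO against 13251 ± 3095 after sham, SD, n = 3). Of all genes, 18.3% were called in either direction at 24 h. At 7 days 0 of the 14 were called by limma, against 13.2% of all genes. An unadjusted limma p below 0.05 was found for 1 of the 14, beside 4687 of all 15982 genes.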

How the data were processed

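Whole-transcriptome libraries of brain microvessels came from 8 groups of 3. Per the labels they were stranded mRNA libraries; the submitters' processing notes name STAR 2.5.2b, featureCounts 1.5.1 and DESeq2 1.6.2 with the mm10 build. The deposited values are scores in the sense that the authors divided reads per gene by a depth factor of each library and rounded to whole numbers, so they are not raw counts and no count model was fitted. Reads that matched several genes had been excluded, and per the study each library pooled 3 hemispheres. Depth factors read back from gaps between low values ran from 0.805 to 1.24, which gives about 13692318 to 20033142 reads per library.

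Values were tested with limma 3.58.1 (trend) in R 4.3.3 on log2(normalized count + 1) in 1 fit of all 24 libraries, for genes with a mean above 5. Fold changes are on that scale and understate those of low genes. Adjustment of the p-values was by Benjamini-Hochberg across the 15982 genes. The calling limits were those of the study. Isoform ratios were compared by exact permutation tests. With 3 libraries per group, and with nothing that gives each pool's animals, p-values measure the spread between pools. Per the paper, more pools per group were made, some were identified as outliers, and 3 per group were analyzed. The spread is thus that of the pools kept.

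Samples with the same number were checked for pairing. In sham hemispheres every same-numbered pair deviated together (correlations of at least 0.145 at 24 h and 0.325 at 7 days). Those of tMCAO hemispheres were all positive too, but went down to 0.0658 and 0.0593. Same-numbered ipsilateral tMCAO and sham libraries averaged -0.161 and -0.00802, and contralateral ones -0.198 and -0.046. Ipsilateral tMCAO libraries of the 2 times averaged -0.039. Ipsilateral sham libraries of the 2 times, from different mice, correlated at 0.00921, 0.105 and 0.411 (mean 0.175). The tMCAO hemispheres averaged 0.251 at 24 h and 0.144 at 7 days. The values across groups bear on an effect of the number and not on a pairing of hemispheres. The hemisphere correlations alone therefore do not settle a pairing. The main fit has no block, so its hemisphere comparisons make no use of such a pairing. The block by pool is given with the alternatives.

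The members and lists were chosen with earlier results of these data known. All 36 members were named by role; values in every library were given for those called against sham and for Hif1a, Epas1, Egln3 and Ldha, and further ones (Hk2, Pfkfb3, Adm, Ankrd37, Bnip3, Ndrg1) were chosen after their values were seen. From each other list up to 3 called genes per direction and time were named. One gene that this rule names is not reported here. The alternatives were other pseudocounts, minimum means, scalings and calling limits, a fit of the compared groups alone, blocks by number or pool, leaving out each library, and a correction for length and GC content chosen after seeing the data. Promoters came from RefSeq; 3 members (Epas1, Bnip3l, Ndrg1) had no window in the table.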

Additional observations from a re-analysis of the deposited data

Results flagged for a closer look

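For 8 members the effect of tMCAO against sham differed between the times by the test of the difference itself, at a limma adjusted p below 0.05 over 15982 genes. The effect at 7 days minus that at 24 h, on the log2 scale, was 2.61 for Hif3a, 0.75 for Mxi1, 0.56 for Egln2 and 0.48 for Bnip3l, and -1.37 for Gapdh, -1.07 for Pgk1, -0.86 for Eno1 and -0.77 for Pkm. The values of Egln2 and Bnip3l lay under the fold limit. Hif3a differed with the sham group as well, which was lower at 7 days than at 24 h. The sham ipsilateral means of Eno1 and Pkm, not called between the sham times, were 1737 and 8832 at 24 h. At 7 days they were 2185 and 10175. Groups of 3 libraries were too small to test a single library for standing apart.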

How the results depend on the processing

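Against sham, the calls of Gapdh, Pgk1, Eno1, Pkm and Mxi1 at 24 h and of Hif3a at 7 days held in all 15 alternatives. The number of members called moved by more than 1.5 times as follows. With no limit on the fold change, 7 were lower at 24 h, 4 higher in the difference between times, 6 higher and 6 lower between the tMCAO times, and 5 lower at 24 h and 1 higher at 7 days against the contralateral hemisphere. Median centring gave 0 lower at 7 days, 5 higher in the difference between times and 5 lower against the contralateral side at 24 h. The length and GC correction gave 4 higher in the difference between times, 6 higher between the tMCAO times and 1 higher against the contralateral side at 7 days. Equal totals gave 6 lower between the tMCAO times. Fitting only the compared groups gave 5 lower against the contralateral side at 24 h, 0 lower there at 7 days and 0 lower between the sham times. The replicate block by pool, which takes same-numbered hemispheres as 1 pool, gave 8 higher (Adm and Ldha added) and 5 lower (Bnip3 and Ndrg1 added) at 24 h and 1 higher (Ankrd37) at 7 days against the contralateral side, and the block by number 1 higher between contralateral hemispheres at 7 days; no other count moved by over 1.5 times under these blocks. The cause was not tested. The shares of all genes called under these settings, or without 1 library, are not given here. These counts therefore do not set the members apart from other genes.

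Leaving out 1 library gave 4 to 5 higher and 3 to 3 lower at 24 h, 1 to 4 and 0 to 1 at 7 days, 2 to 4 and 2 to 4 in the difference between times, 0 to 2 and 2 to 4 between the tMCAO times, 4 to 7 and 1 to 3 against the contralateral side at 24 h, 0 to 1 and 0 to 2 there at 7 days, 0 to 1 higher between contralateral hemispheres at 7 days, and 0 to 1 lower between the sham times. The ratio of Hif1a to Epas1 at 7 days ranged from -0.10 to 0.67 and that of Hk2 to Hk1 from -0.243 to 0.0513 on the log2 scale, so their signs turned. The ratio of Ldha to Ldhb at 7 days ranged from 0.12 to 0.70. The members' median log2 fold change ranged from -0.0671 to 0.14 at 24 h, from -0.163 to 0.0436 at 7 days, from -0.0482 to 0.161 against the contralateral side at 24 h and from -0.0339 to 0.192 between sham hemispheres at 7 days.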
